A study of Homo sapiens with 6 samples.

Results

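Serglycin (SRGN) and 6 genes of the cytotoxic granule, GZMB, GZMA, PRF1, CTSC, SERPINB9 and LAMP1, were followed through 6 arrays of the Hodgkin lymphoma cell line L1236. They are 7 of the 18604 genes that the deposited annotation names. Each is the only row of the deposited table that names just that symbol. SRGN was chosen by its measured level, which was higher with leukotriene D4 (LTD4) than in both references at 8 h. Its 8 h values are therefore a description, and the other 6 were added for their known place in the granule.

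L1236 is an established line grown from the malignant cells of Hodgkin lymphoma, which descend from B cells. LTD4 is a lipid mediator that acts on cysteinyl leukotriene receptors, which are coupled to G proteins. The 6 groups were untreated cells, cells given the vehicle methanol at 0.1%, and cells given LTD4 at 100 nM dissolved in that vehicle, each at 1 h and at 8 h. Per the labels, cells were pelleted and taken up in medium without serum for LTD4 or vehicle, and the labels do not say whether the untreated cells also left serum. Every group was 1 array, so no difference between 2 arrays had a replicate error or a test. This is 1 cell line in culture, without the T cells and other leukocytes that surround Hodgkin cells in tissue.

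Serglycin is a small proteoglycan made mainly by blood cells. Its glycosaminoglycan chains carry a strong negative charge and hold basic cargo in secretory granules, such as granzymes in cytotoxic lymphocytes, proteases in mast cells and chemokines in several leukocytes. In killer cells cathepsin C (CTSC) cleaves the granzyme precursors into active enzymes, perforin (PRF1) opens the target membrane, and granzymes A and B cut proteins inside the target. SERPINB9 blocks granzyme B that escapes into the cytosol, and LAMP1 lines the membrane of lysosomes and granules.

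Values were deposited as intensities on a linear scale, and differences are given on the log2 scale of intensity plus 16. A gene counted as above background when its highest array reached an intensity of 1263, the 95th percentile of 45 control probesets that match no human sequence, and 3584 of 18604 genes (19.3%) passed and were tested. Of the 7 granule genes 3 passed, SRGN, CTSC and LAMP1, and 4 did not, GZMB, GZMA, PRF1 and SERPINB9. A gene counted as changed by LTD4 when it lay at least 1.5-fold, 0.58 on the log2 scale, past both references, untreated and methanol, at the same time. The arrays themselves shifted against each other: the median intensity of all probesets was between 154 and 228. For the tested genes the median of methanol minus untreated was -0.21 at 1 h and 0.27 at 8 h, and that of LTD4 minus methanol was 0.11 and -0.10. Differences after centring each array on its median over the tested genes are therefore given as well. In RNA from whole cultures, fewer cells that make a transcript and less transcript per cell cannot be told apart.

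Promoter sequences from RefSeq (GRCh38.p14, 250 bases before to 50 bases after the start) were matched for 6 of the 7 genes, all but SRGN. Those of the 2 lysosomal members above background are shown because one holds repeats of the core of a lysosomal gene motif and the other does not. The capitals mark CACGTG, the core of the CLEAR element, a sequence on which lysosomal genes are known to be controlled. It reads the same on both strands. Only these letters were searched for, not the whole element. The first stretch lies at chr13:113296989-113297288 on the plus strand and the second at chr11:88337687-88337986 on the minus strand.
LAMP1: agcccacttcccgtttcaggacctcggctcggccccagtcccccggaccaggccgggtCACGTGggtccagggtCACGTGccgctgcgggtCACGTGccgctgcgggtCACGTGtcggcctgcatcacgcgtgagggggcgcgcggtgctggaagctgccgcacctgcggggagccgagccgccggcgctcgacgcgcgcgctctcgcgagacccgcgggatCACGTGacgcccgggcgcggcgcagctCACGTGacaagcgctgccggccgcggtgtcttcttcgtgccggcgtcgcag
CTSC: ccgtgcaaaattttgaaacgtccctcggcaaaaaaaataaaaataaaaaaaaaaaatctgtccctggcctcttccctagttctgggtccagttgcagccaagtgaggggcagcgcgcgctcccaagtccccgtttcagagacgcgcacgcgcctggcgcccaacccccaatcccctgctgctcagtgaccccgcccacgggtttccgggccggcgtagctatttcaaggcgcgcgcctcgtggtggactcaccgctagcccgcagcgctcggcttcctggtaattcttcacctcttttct
LAMP1 held the motif 6 times and CTSC 0 times, and no other matched granule gene held it. In comparison, 7.26% of 35116 promoter windows of the same length held it, and of the other lysosomal genes listed below 6 of 20 with a sequence did. These are letters in a window and were not measured as binding.

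SRGN lies on chromosome 10 from 70517834 to 70534573 on the plus strand in the coordinates of the deposited table, which name no genome build. Its intensity at 1 h was 2412 in untreated cells, 1889 with methanol and 2448 with LTD4. At 8 h it was 1839 untreated, 2218 with methanol and 3481 with LTD4. The LTD4 array at 8 h was the highest of the 6 and the untreated array at 8 h the lowest, and the 4 remaining arrays lay between 1889 and 2448. All 6 arrays were above background.

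At 8 h SRGN was 1.57-fold higher with LTD4 than with methanol (0.65 on the log2 scale) and 1.89-fold higher than in untreated cells (0.91). This is the pair of differences on which it was picked, so nothing is read from it. It was the 1 gene of 3584 (0.0279%) past 1.5-fold against both references. CES1, a carboxylesterase, came next and lay just outside, with 0.51 against methanol and 2.08 against untreated. ANXA1, a phospholipid-binding protein, followed with 0.46 and 1.07. After centring, the difference of SRGN was 0.74 against methanol and 0.73 against untreated, and 2 genes (0.0558%) then passed, the other being CES1. For LTD4 minus methanol at 8 h the central 95% of tested genes ran from -0.41 to 0.26, and for LTD4 minus untreated from -0.44 to 1.01, so that SRGN lay outside the first range and inside the second. Against untreated cells alone 485 genes (13.5%) were 1.5-fold higher with LTD4 at 8 h, and 541 (15.1%) were with methanol.

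At 1 h, a time not used to pick it, SRGN was 1.30-fold higher with LTD4 than with methanol (0.37) and level with untreated cells (0.02, a ratio of 1.01). It was not past the 1.5-fold rule, which 15 genes (0.419%) met. The central 95% of tested genes ran from -0.18 to 0.40 for LTD4 minus methanol at 1 h, and SRGN lay inside it near its upper end. Centred, its differences at 1 h were 0.26 and 0.12. Between the 2 references SRGN also differed: methanol minus untreated was -0.35 at 1 h and 0.27 at 8 h, and -0.14 and -0.01 after centring.

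Over time SRGN differed by -0.39 in untreated cells, by 0.23 with methanol and by 0.51 with LTD4 from 1 h to 8 h. The difference between LTD4 and methanol was thus larger at 8 h than at 1 h by 0.27, while the median tested gene moved by -0.21. Against untreated cells it grew by 0.89, and the median tested gene by 0.27. The 8 h arrays took part in the choice of SRGN, so these values too are given without a test.

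**Figure D1:**
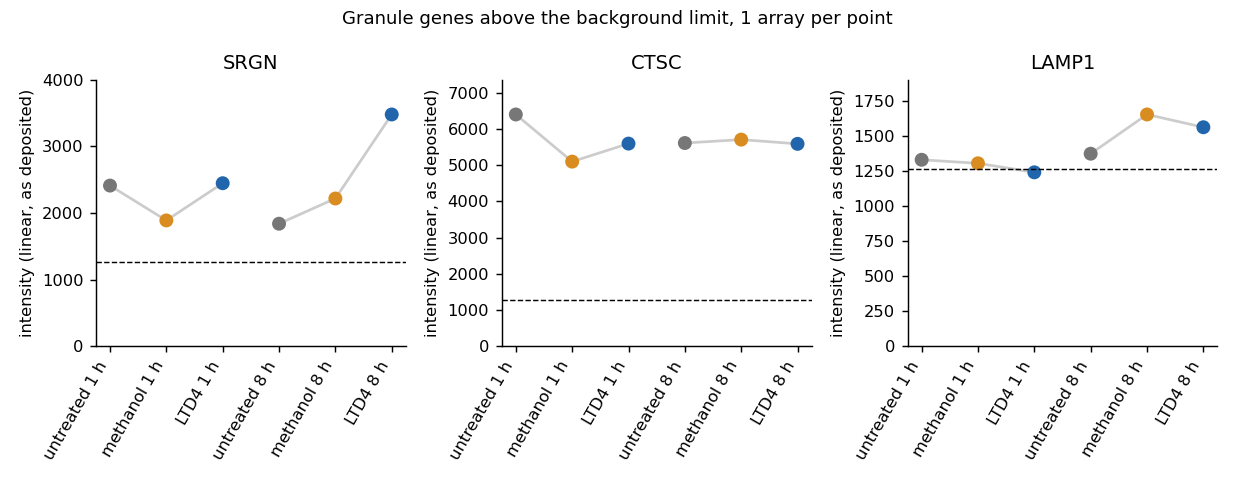
Deposited intensity (linear axis from 0, y) of SRGN, CTSC and LAMP1 on each of the 6 arrays (x), 1 point per array with no error bar because each group is 1 array; the dashed line is the background limit of 1263 and grey lines join arrays of 1 time. SRGN reaches 3481 with LTD4 at 8 h against at most 2448 on the others, CTSC stays between 5096 and 6399, and LAMP1 lies close to the limit.

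The profile of SRGN over the 6 arrays was most like that of 5 tested genes. Pearson's r on the log2 scale was 0.96 for RPS25 (a ribosomal protein), 0.96 for TMPRSS3 (a membrane serine protease), 0.96 for B2M (the light chain of MHC class I), 0.95 for SBDS (a ribosome maturation factor) and 0.94 for RPL24 (a ribosomal protein). B2M at 8 h was 6628 untreated, 7377 with methanol and 8894 with LTD4, and SBDS was 1313, 1623 and 2190.3 in that order. Of these genes TMPRSS3 (0.97) and SBDS (0.93) were also among the 5 most alike after centring, with CFAP20 (0.99), PRKAA1 (0.97) and VPS29 (0.95). These values rank 3584 genes on 6 points that share arrays and their shifts, and describe only the profiles.

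**Figure D2:**
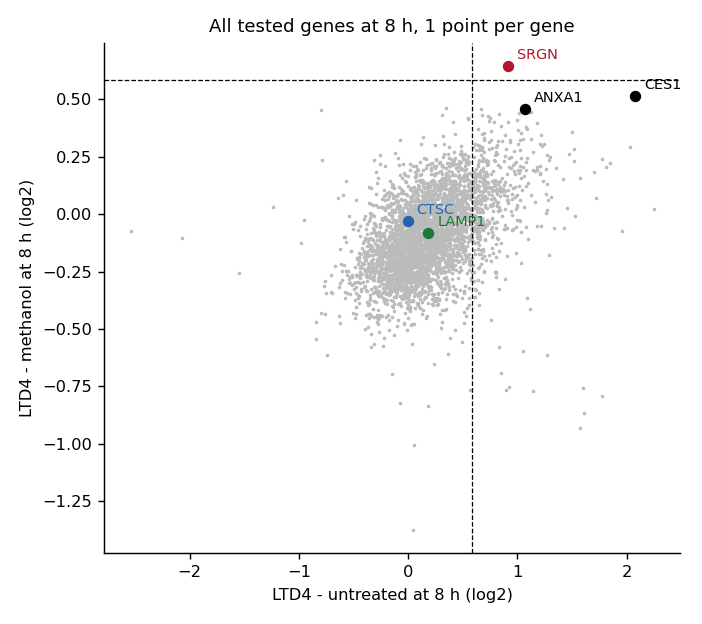
Log2 difference between LTD4 and untreated (x) and between LTD4 and methanol (y) at 8 h, 1 grey point for each of the 3584 tested genes, with dashed lines at 1.5-fold. SRGN is the single gene in the upper right corner, CES1 and ANXA1 lie below the horizontal line, and CTSC and LAMP1 lie within the cloud.

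CTSC, on chromosome 11 from 87666408 to 87710586 on the minus strand in the file's coordinates, stayed near 1 level. It measured 6399 untreated, 5096 with methanol and 5594 with LTD4 at 1 h. At 8 h it measured 5610.0, 5704 and 5587 in the same order. The highest array was 1.26-fold above the lowest, and the 3 arrays at 8 h lay closer together than those at 1 h. LTD4 minus methanol was 0.13 at 1 h and -0.03 at 8 h, and LTD4 minus untreated was -0.19 and -0.01. After centring these were 0.02 and 0.06 against methanol, and -0.10 and -0.19 against untreated.

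The arrays of the 3 agents were used as repeats for time, and those of the 2 times as repeats for the agents, in a linear model of agent and time (limma, 2 residual degrees of freedom). CTSC differed by -0.01 (SE 0.18) between 8 h and 1 h, with an adjusted p of 0.998 from limma, and it was lower at 8 h in 2 of 3 agents. For methanol against untreated the estimate was -0.15 (SE 0.22, limma adjusted p 0.907), negative at 1 of 2 times. For LTD4 against methanol it was 0.05 (SE 0.22, limma adjusted p 1.0), positive at 1 of 2 times. None of these estimates exceeded its standard error.

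LAMP1 lies on chromosome 13 from 112999470 to 113025746 on the plus strand in the file's coordinates. It measured 1329 untreated, 1303 with methanol and 1239 with LTD4 at 1 h, the last of these below the limit of 1263. At 8 h it measured 1372 untreated, 1652 with methanol and 1561 with LTD4. All 3 arrays at 8 h were above all 3 at 1 h, the highest 1.33-fold above the lowest. This did not pass the test: 8 h minus 1 h was 0.24 (SE 0.18) with a limma adjusted p of 0.846, positive in 3 of 3 agents. After centring it was 0.15 (SE 0.095, limma adjusted p 0.426).

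For LAMP1, LTD4 minus methanol was -0.07 at 1 h and -0.08 at 8 h as deposited. Its sign at 8 h turned with the scaling: after centring the differences were -0.18 and 0.011, and after quantile normalization -0.17 and 0.039. As deposited the estimate over both times was -0.08 (SE 0.22, limma adjusted p 1.0). Methanol minus untreated was -0.03 and 0.26, with an estimate of 0.12 (SE 0.22, limma adjusted p 0.935). CTSC and LAMP1 passed in none of the 3 limma comparisons. SRGN is not counted here, since its 8 h arrays took part in its choice. As background, 34 tested genes (0.949%) were higher and 29 (0.809%) lower at 8 h. For methanol against untreated these were 68 (1.9%) and 13 (0.363%). After centring they were 61 (1.7%) and 96 (2.68%) for time, and 203 (5.66%) and 195 (5.44%) for methanol. CTSC and LAMP1 were again not among them. Between LTD4 and methanol limma called 0 genes, and 13 of 3584 had an unadjusted p below 0.05. The labels name no repeated cultures, so that p-values here rest on the spread among 6 arrays, and that spread may be technical. It also holds any difference between agents that changes with time, since the model has no term for it. The 0 calls between LTD4 and methanol thus concern only a difference shared by both times.

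**Figure D3:**
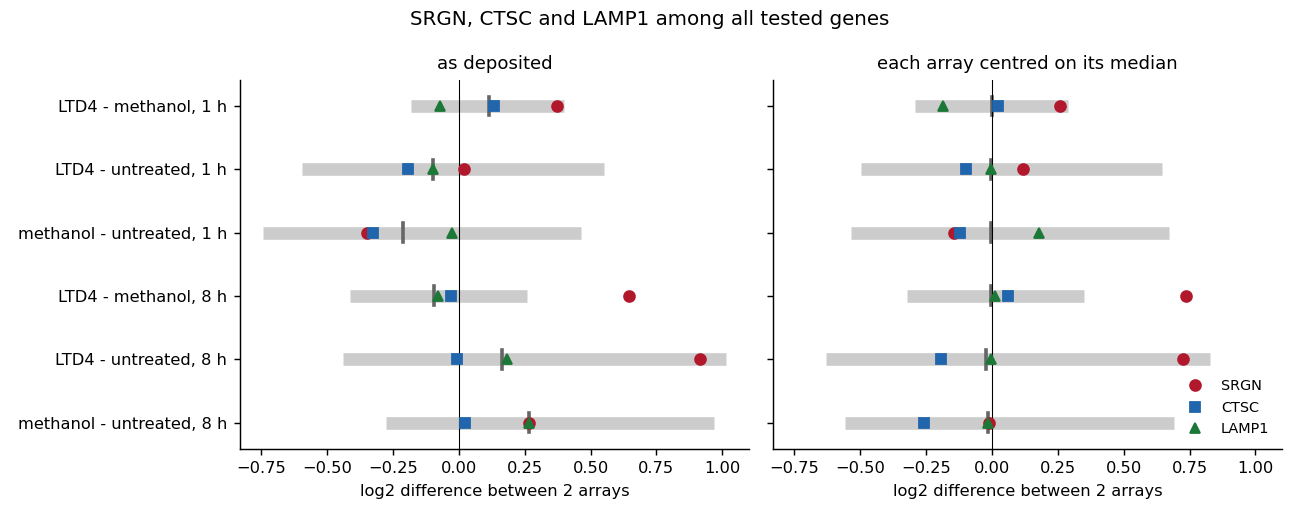
Log2 difference between 2 arrays (x) for each pair of agents and time (y), as deposited (left) and after centring (right), with SRGN as circles, CTSC as squares and LAMP1 as triangles; grey bars hold the central 95% of the 3584 tested genes and the short vertical lines their median. SRGN lies outside the bar for LTD4 minus methanol at 8 h on both scales and inside it at 1 h, and CTSC and LAMP1 lie inside every bar.

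The killing enzymes were not above background on any array. GZMB (chromosome 14, 24170000 to 24173313, minus strand) measured 145 untreated, 151 with methanol and 149 with LTD4 at 1 h, and 115, 168 and 170.3 at 8 h. GZMA (chromosome 5, 54434230 to 54441837, plus strand) measured 159.92, 191 and 153 at 1 h and 111, 149.6 and 148 at 8 h. PRF1 (chromosome 10, 72027110 to 72032521, minus strand) measured 94.2, 156 and 106 at 1 h and 69.2, 114 and 109.7 at 8 h. All 3 genes were lowest in untreated cells at 8 h. With LTD4 and methanol at 8 h each of them measured nearly the same.

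The granzyme B inhibitor SERPINB9 (chromosome 6, 2832499 to 2848526, minus strand) was below the limit too. It measured 262, 220.1 and 222 at 1 h in untreated, methanol and LTD4 cells, and 220.5, 229.95 and 185 at 8 h. Its lowest value was on the array where SRGN was highest, and it measured 220.5 on the array where SRGN was lowest. All its values were below the limit, so no link to SRGN is read from this. Set among 2904 control probesets placed in introns, GZMB ranked between percentiles 56.3 and 65.0 over the arrays, GZMA between 54.6 and 67.7, PRF1 between 46.9 and 59.6 and SERPINB9 between 63.5 and 76.8. Differences between arrays at this level have no fold here, since both sides are below the limit. Of the 15020 genes below it, 12.5% at 1 h and 24.5% at 8 h read at least 1.5-fold higher with methanol than untreated, PRF1 among them at both times. A transcript present at a low level cannot be told from background on these arrays.

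**Figure D4:**
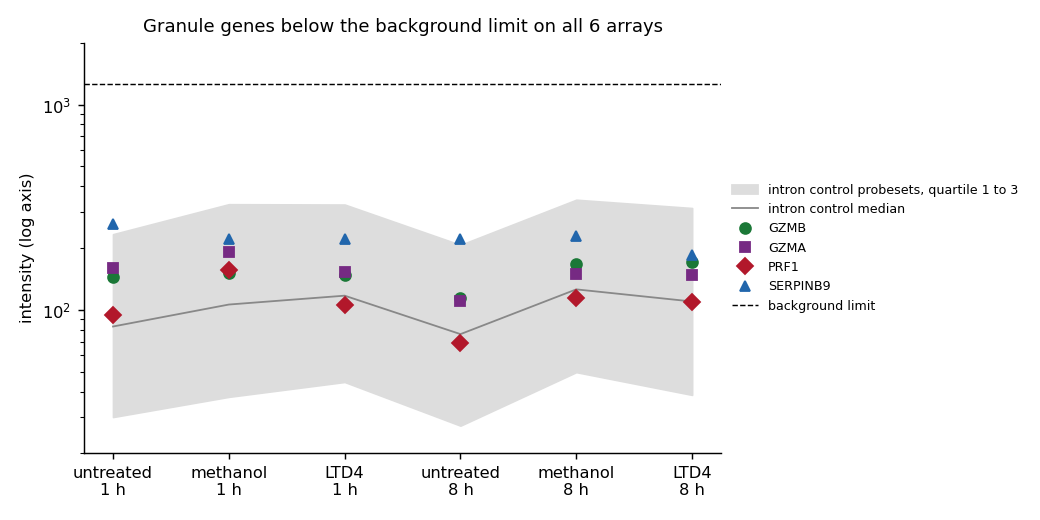
Deposited intensity (log axis, y) of GZMB, GZMA, PRF1 and SERPINB9 on each array (x), 1 point per array, with the grey band from the first to the third quartile of 2904 intron control probesets, their median as a grey line and the background limit as a dashed line. Every point lies below 1263, the highest at 262.

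Other effectors of cytotoxic cells gave the same picture: of 10 listed genes 1 was above background. GZMM, GZMH, GZMK, GNLY (granulysin), NKG7, CTSW, CST7, FASLG and TNFSF10 measured at most 449.7, the highest value of GZMM. The exception was LTA, lymphotoxin alpha, a cytokine that B cells also make, which ran from 4988 to 6472. LTA with LTD4 minus methanol was 0.16 at 1 h and -0.14 at 8 h. Markers of T and NK cells were below the limit for 16 of 16 genes, the highest being LCK at 549, and none was at 0. Their summed intensity was 2299, 2920 and 2538 at 1 h (untreated, methanol, LTD4) and 1638, 2470 and 2542 at 8 h. The sum was lowest on the untreated array at 8 h, where SRGN was also lowest, and highest with methanol at 1 h, where SRGN was next to lowest. The median intensity of all probesets was likewise lowest on the first of these arrays (154) and highest on the second (228). The part of such cells in the level of SRGN was not tested. Markers of mast cells, neutrophils and monocytes, which also store serglycin, were above the limit for 1 of 16 genes, CMA1 (mast cell chymase). CMA1 measured 1784 with methanol and 1729 with LTD4 at 8 h, and KIT and MS4A2, which define mast cells, were at most 36.5 and 45.1. The markers of the labelled cell were above background for 8 of 14 genes, with CD86 between 4022 and 5642, BATF3 between 3990.1 and 5121 and IRF4 between 4196 and 4991. TNFRSF8 (CD30), by which Hodgkin cells are usually recognised, was below the limit at 496 to 872.

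Genes that regulate cytotoxic programmes were above background for 7 of 13. EOMES, a T-box factor of killer cells, measured between 1438 and 1934. IKZF1 (Ikaros), a zinc finger factor of lymphocytes, measured between 2002 and 2999, and ID2, an inhibitor of helix-loop-helix factors, between 1274 and 1918. BHLHE40, a transcriptional repressor, measured 1842 untreated, 1732 with methanol and 2791 with LTD4 at 1 h. It was past the 1.5-fold rule at 1 h (0.68 and 0.60) and at 8 h differed by -0.07 and 0.25. All 7 were above methanol at 1 h, with a median of 0.30, and none was at 8 h, with a median of -0.23. Of all tested genes 2943 of 3584 were above methanol at 1 h, with a median of 0.11, and 1079 at 8 h, with a median of -0.10. After centring, 7 of 7 regulators were above methanol at 1 h and 2 of 7 at 8 h, beside 1805 and 1760 of all tested genes.

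Proteins that serglycin is known to bind were above background for 5 of 14 listed genes. CCL3, a chemokine for monocytes and T cells, measured 2655 untreated, 2013 with methanol and 4548 with LTD4 at 1 h. At 8 h it measured 1537, 1514 and 1920.2. The LTD4 array was 1.17 and 0.77 above its references at 1 h, past the 1.5-fold rule, and 0.34 and 0.32 above them at 8 h. CCL3 fell by 0.81 (SE 0.18) from 1 h to 8 h with a limma adjusted p of 0.0023. With either LTD4 array left out the estimate was -0.59 and the adjusted p 0.99993, in a fit whose residual SD was 0.27 in place of 0.22. TNF fell by 0.61 (SE 0.18, limma adjusted p 0.047), and by 0.50 to 0.79 with 1 array left out, where no fit kept the call (limma adjusted p at least 0.0644). The call was also lost with an offset of 64 (0.0501), the filter on the mean (0.0552), eBayes with a trend (0.362) and robust eBayes (0.163). It was kept with an offset of 1 (0.0453) and without a filter (0.0444). After centring TNF fell by 0.70 (limma adjusted p 0.0045) and after quantile normalization by 0.69 (limma adjusted p 0.0070), where the call was kept too. CCL5 at 8 h measured 2862 untreated, 3045 with methanol and 3225 with LTD4, and TIMP1, an inhibitor of matrix metalloproteases, measured 1672, 1954 and 2142. CCL3, CCL5 and TIMP1 were thus above both references at 8 h, with differences from methanol of 0.34, 0.08 and 0.13, and none reached 1.5-fold. TNF and CMA1 differed from methanol by -0.11 and -0.05 there, and by -0.01 and 0.05 after centring. At 8 h 3 of the 5 genes were thus above methanol as deposited and 4 after centring, beside 1079 and 1760 of all 3584 tested genes.

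The lysosomal proteases, hydrolases and membrane proteins were above background for 10 of 33 genes, and 0 of the 10 met the LTD4 rule at either time. CD63, a tetraspanin of lysosomes and granules, measured 2573, 2551 and 2493 at 1 h and 2667, 2701 and 3346 at 8 h. Its LTD4 array at 8 h was the highest of the 6, by 0.31 over methanol and 0.33 over untreated. The acid ceramidase ASAH1, the sialidase NEU1 and the saposin precursor PSAP differed from methanol at 8 h by 0.02, 0.04 and -0.22, and CTSB, a cysteine protease, by -0.31. The list's median LTD4 minus methanol was 0.04 at 1 h and 0.02 at 8 h, beside 0.11 and -0.10 over all tested genes. After centring it was -0.07 and 0.11, so the sign at 1 h turned. At 8 h 6 of 10 genes were above methanol on both scales, beside 1079 of 3584 tested genes as deposited and 1760 after centring. LIPA, the lysosomal acid lipase, and LAMP2, the partner of LAMP1 in the lysosomal membrane, did not pass for methanol against untreated as deposited (-0.44 and -0.40, limma adjusted p 0.458 and 0.548). After centring both were lower with methanol, by -0.48 and -0.44, with limma adjusted p of 0.0268 and 0.037. LAMP2 was above the background limit only on the untreated array at 1 h (1421), the high side of this comparison. At 8 h its untreated and methanol arrays (1113 and 1005) were both below the limit, so its difference there has no fold. LIPA was below the limit with methanol at 1 h (1151). The size of the LAMP2 estimate is therefore not read as a measured change.

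Genes of mannose 6-phosphate sorting, which carries hydrolases and granzymes to lysosomes, were above background for 3 of 9, the receptors M6PR, IGF2R and SORT1. The cation-dependent mannose 6-phosphate receptor M6PR measured 3878 with methanol and 4093 with LTD4 at 8 h, a difference of 0.08. IGF2R, the other such receptor, and SORT1 (sortilin) were below methanol by -0.16 and -0.28. Granule transport and exocytosis genes were above background for 12 of 27. As deposited 3 of the 12 were above methanol at 8 h, a share near that of all tested genes (1079 of 3584). After centring 4 of the 12 were, beside 1760 of all tested genes. RAB7A, VAMP7, RAB11A and KIF5B, a GTPase of late endosomes, a vesicle SNARE, a GTPase of recycling endosomes and a kinesin, differed from methanol at 8 h by -0.10, -0.19, 0.08 and -0.24.

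Genes listed for the synthesis of glycosaminoglycan chains, with enzymes and transporters for chondroitin sulfate and heparan sulfate, were above background for 6 of 40. Which chains serglycin carries in these cells was not measured. With LTD4 at 8 h, 0 of the 6 were above methanol as deposited, beside 1079 of all 3584 tested genes, and the median was -0.15 against -0.10. After centring 2 of the 6 were, EXTL3 (0.08) and CHST11 (0.03), the latter a chondroitin sulfotransferase, beside 1760 of all tested genes. HS6ST1, a heparan sulfate sulfotransferase, differed by -0.16, EXTL3, a glycosyltransferase of heparan sulfate, by -0.01, and UGP2, which makes UDP-glucose, and PAPSS1, which makes the sulfate donor, by -0.15 each. UGDH turns UDP-glucose into the building block UDP-glucuronate. It was lower with methanol than untreated after centring (-0.42, limma adjusted p 0.0372) but not as deposited (-0.38, limma adjusted p 0.585). With methanol at 1 h UGDH measured 869, so the low side of this comparison was below the background limit there. Other proteoglycan cores and their partners were above background for 3 of 22 genes. CD44, a hyaluronan receptor that serglycin can bind, ran from 4116 to 5099. It differed from methanol at 8 h by -0.06, CD74 (the invariant chain of MHC class II) by -0.31 and SDC3 (syndecan 3) by -0.49.

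Granzyme inhibitors and related serpins and cystatins, SERPINB9 among them, were above background for 3 of 10 genes. CSTB (cystatin B) differed from methanol at 8 h by 0.09, SERPINB6 by -0.12 and SERPINB1 by -0.37. SERPINB1, an inhibitor of neutrophil serine proteases, measured 1202 both in untreated cells and with LTD4 at 8 h, and 1554 with methanol. Known targets of granzyme B and cell death genes were above background for 10 of 18. TUBA1B, SET, MCL1 and PARP1 had the highest mean levels of these. MCL1, an inhibitor of apoptosis, was 0.58 above methanol at 1 h and 0.17 above untreated, and thus not past both references. LMNB1 (lamin B1) was lower with methanol than untreated after centring (-0.41, limma adjusted p 0.0397) but not as deposited (-0.37, limma adjusted p 0.598). With methanol at 1 h LMNB1 measured 1173, below the background limit.

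**Figure D5:**
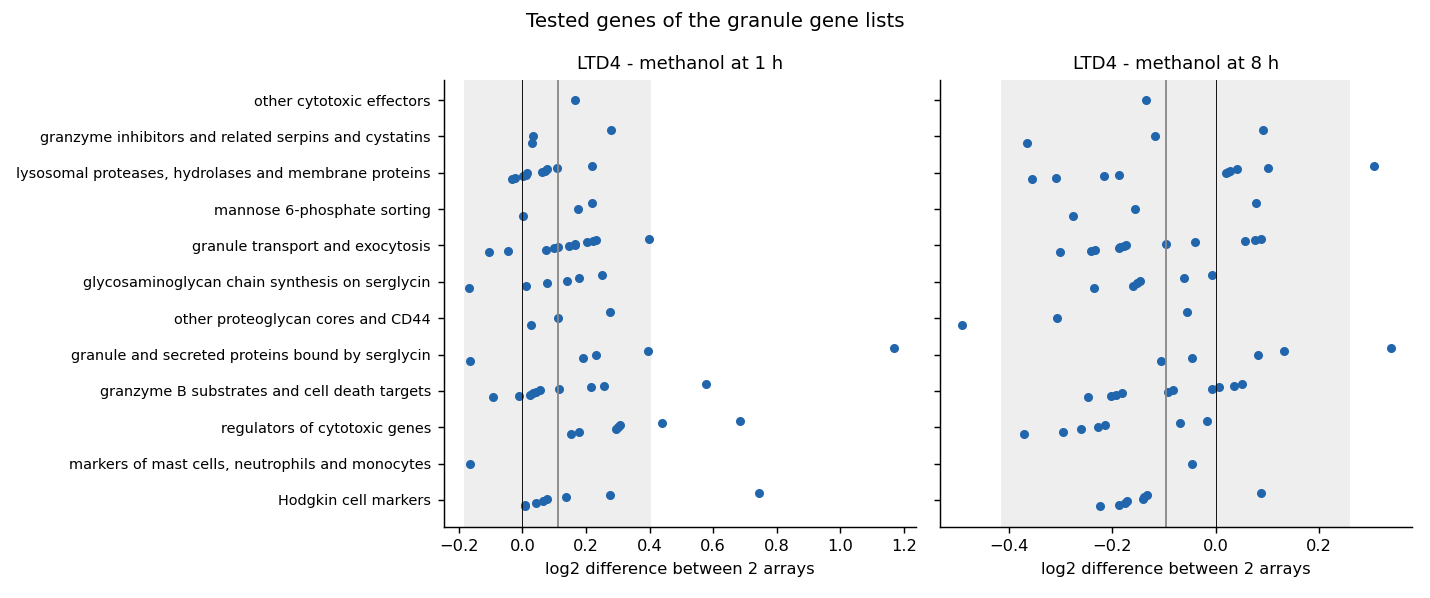
Log2 difference between LTD4 and methanol (x) at 1 h (left) and 8 h (right) for the tested genes of each list (y), 1 point per gene, with the central 95% of all 3584 tested genes shaded and their median as a grey line. At 1 h CCL3 (1.17), CD274 (0.74), BHLHE40 (0.68), MCL1 (0.58) and RUNX3 (0.44) lie right of the shaded range, and at 8 h CCL3 (0.34) and CD63 (0.31) do, while SDC3 (-0.49) lies left of it.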

How the data were processed

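Total RNA of L1236 cells was labelled and measured on 6 arrays, 1 per group. The authors deposited gene-level intensity values on a linear scale for 33297 probesets. RMA and Affymetrix Expression Console appear in the submitters' processing notes, while the deposited table is named for PLIER. How arrays were normalized to each other, and the genome build, the labels and file headers do not give. The series' value table, also deposited, held identical values (199782 of 199782).

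Probesets naming 1 symbol were kept (19479; 1032 named several and 12786 none), 19079 symbols were updated through Entrez identifiers, and the probeset with the highest mean stood for a gene. Values were analysed as log2(intensity + 16). The model of agent and time was fitted with limma 3.58.1 in R 4.3.3 (lmFit, eBayes) to all tested genes, with Benjamini-Hochberg adjustment and a threshold of 0.05, and was tested on simulated data. Shared prior variance gave all genes the same standard error as deposited. The precision is limited by the number of arrays.

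The granule genes and all gene lists were chosen with earlier results of these data known. Named genes are the granule genes, up to 4 tested genes of each list with the highest mean, any list gene past a rule or fit, and the 5 genes most like SRGN. A few others (CES1, ANXA1, CD274, KIT, MS4A2 and TNFRSF8 among them) were named after their values were seen. Alternatives were the second table, offsets of 1 and 64, centring, quantile normalization, other filters, a 2-fold rule, 1 reference, eBayes with trend or robust, and arrays left out.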

Additional observations from a re-analysis of the deposited data

Results flagged for a closer look

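Some differences between 2 agents had opposite signs at the 2 times as deposited, and whether the times differ was not tested, since each value rests on 2 single arrays. Such a turn was common: it held for 73.5% of the tested genes for LTD4 minus methanol, for 41.9% for LTD4 minus untreated and for 63.1% for methanol minus untreated. The median tested gene itself changed from 1 h to 8 h by -0.21, 0.27 and 0.50 in these 3 differences, and centring each array removed 4 of the 5 turns below and reversed the other.

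SRGN had -0.35 at 1 h and 0.27 at 8 h for methanol minus untreated, a change of 0.62, and -0.14 and -0.01 after centring. CTSC had -0.33 and 0.02 for the same pair, a change of 0.35, and -0.12 and -0.26 after centring, where the change ran the other way. For LTD4 minus methanol CTSC had 0.13 and -0.03, a change of -0.16, and 0.02 and 0.06 after centring. LAMP1 had -0.03 and 0.26 for methanol minus untreated, a change of 0.29, and 0.18 and -0.02 after centring, a turn in the opposite direction. For LTD4 minus untreated LAMP1 had -0.10 and 0.18, a change of 0.28, and -0.004 and -0.005 after centring.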

How the results depend on the processing

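No paired analysis was possible because each group was 1 array, so that no replicate numbers pair samples. SRGN was picked on its 8 h values, so its passing of the 1.5-fold rule under the offsets, scalings and filters tried is a description only. Its differences there were 0.64 to 0.78 against methanol and 0.73 to 0.92 against untreated. None of the other granule genes met the rule at 8 h, and 0 granule genes did at 2-fold. Of 90 recomputed differences of SRGN, CTSC and LAMP1 between 2 arrays, 85 moved by less than the residual SD of 0.22. The 5 others were methanol minus untreated at 8 h: after centring -0.01 for SRGN, -0.26 for CTSC and -0.02 for LAMP1, and after quantile normalization -0.03 for SRGN and -0.04 for LAMP1. Without the filter 1 granule gene, PRF1, was past 1.5-fold for methanol against untreated at both times with all its arrays below the limit, as were 12.5% (1 h) and 24.5% (8 h) of the 15020 genes below it, and its limma adjusted p was 0.052.

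The 63 genes called for time became 157 after centring, 147 after quantile normalization, 320 without a filter, 147 with a filter on the mean, 7 with a trend, 28 with robust eBayes and 19 without both LTD4 arrays, and 9 (without either methanol array) to 187 (without either untreated array) with 1 array left out, and 19 without either LTD4 array. The 81 for methanol against untreated became 398, 382, 1673, 607 and 52 under the first 5 of these, 47 without both LTD4 arrays, and 38 (without methanol at 8 h) to 343 (without untreated at 1 h) with 1 array left out, and again 47 without either LTD4 array. For LTD4 against methanol 0 genes became 3 without a filter and 1 with the filter on the mean. With 1 array left out some fits called genes, among them CCL3, whose estimate was 0.75 without either untreated array. None of the granule genes besides SRGN was called. SRGN is left out of this statement because it was picked on this contrast at 8 h. Of 94 recomputed limma estimates of CTSC and LAMP1, 4 turned sign: CTSC over time was 0.080 without either untreated array (range with 1 array left out -0.096 to 0.080), CTSC for LTD4 against methanol -0.077 without the methanol array of 1 h (range -0.077 to 0.18), and LAMP1 for methanol against untreated -0.025 without the untreated array of 8 h (range -0.025 to 0.26). The cause was not tested. The second table, the other filters and eBayes with trend or robust leave an estimate unchanged, so no sign could turn there. A fit that left out an array assumed that the lone array of its agent varied like the others. The background limit leaves changes of GZMB, GZMA, PRF1 and SERPINB9 unmeasured.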
